A study of Mus musculus with 2 samples.

Results

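The genes described here carry glutamate or glutamine across cell membranes or turn glutamate into glutamine. They were taken by symbol from a list of 7 among the 32285 genes counted: Slc1a1, Slc1a2, Slc1a3, Glul, Slc7a11, Slc38a1 and Slc38a3. All 7 were found in the count matrices. They were measured by single-nucleus RNA sequencing of the hippocampus in 2 libraries, 1 per genotype. The PS19 library came from male PS19 mice with wild-type Zbp1 and the PZKO library from male PS19 mice in which Zbp1, a sensor of Z-form nucleic acids, was knocked out. Both groups carry the PS19 transgene, which encodes human tau with the P301S mutation, both were 9 months old, and hippocampi of 5 animals were pooled per genotype. Mice without the transgene were not analysed here.

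Glutamate released at synapses is cleared mainly by astrocytes, through the transporters GLT-1 (Slc1a2) and GLAST (Slc1a3), while EAAC1 (Slc1a1) serves uptake in neurons. Inside astrocytes glutamine synthetase (Glul) joins ammonia to glutamate, the transporter SNAT3 (Slc38a3) lets glutamine out, and SNAT1 (Slc38a1) is one of the carriers that bring glutamine into neurons for new glutamate and GABA. System xc- (Slc7a11 with the heavy chain Slc3a2) works against this flow, as it exports glutamate in exchange for cystine, which cells need to make glutathione.

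After filters on depth, mitochondrial share and doublets, 9590 PS19 and 9307 PZKO nuclei were kept, and 23 of 28 clusters were named as 12 classes from marker genes that include none of the 7. The nuclei of the deposited PZKO matrix held a median of 8343 unique molecular identifiers (UMIs, 1 per captured RNA molecule) against 5642 in PS19, 1.48 times as many. Levels are therefore given as UMIs of a gene relative to all UMIs of its class, on the counts-per-million scale (CPM), and each interval is a 95% interval for counting error only. With 1 pooled library per genotype there is no replicate, no test between genotypes was possible, and a difference between genotypes cannot be told apart from a difference between these 2 libraries. The knocked-out Zbp1 had 94 UMIs in PS19 and 39 in PZKO, or 0.932 and 0.255 CPM. In astrocytes 79 of 79 ribosomal protein genes and 13 of 13 mitochondrially encoded genes were lower in PZKO, with median log2 ratios of −0.54 and −0.65, and these lists were lower in excitatory neurons (−0.47 and −0.70) and oligodendrocytes (−0.49 and −0.61) too. The part of such library-wide differences in the ratios below was not tested. The libraries share 47 nuclear barcodes.

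The astrocyte class held 1085 PS19 and 1164 PZKO nuclei, and all 13 of its defining markers, among them Aqp4, Gja1 and Aldh1l1, were detected. In these nuclei none of the 7 genes differed between the libraries by a log2 ratio of 0.32 or more in size, the threshold used for all counts here, in either direction. Of 11835 genes with at least 100 UMIs in astrocytes, 19.9% were lower and 6.3% higher in PZKO past the threshold, and the median log2 ratio of PZKO over PS19 was −0.06 for the 7 genes and −0.06 for all genes. In excitatory neurons as a class Slc1a3 and Glul were lower and Slc7a11 was higher past the threshold, all at low levels. These ratios were not alike in all clusters of the class, as given below. In oligodendrocytes as a class Slc38a3 was lower and Slc1a1 higher past it on few UMIs, with intervals that include 0. Slc1a2 was close to level over this class but not within each of its clusters, as given below.

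**Figure D1:**
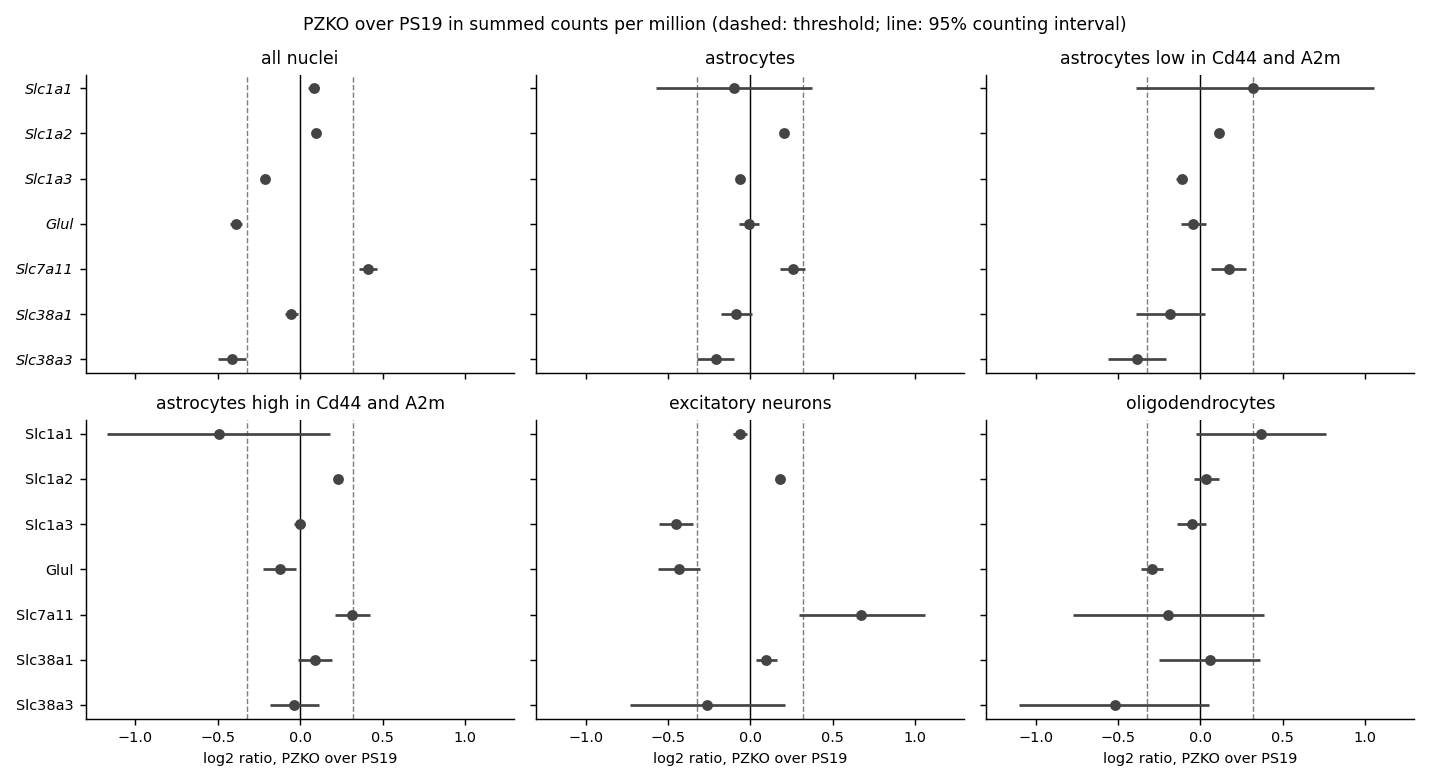
The log2 ratio of PZKO over PS19 (horizontal axis) of each gene is plotted for all nuclei, astrocytes, the 2 astrocyte clusters, excitatory neurons and oligodendrocytes, with the 95% counting interval as a line and dashed lines at the threshold of 0.32 in size. No point in the astrocyte panel lies outside the dashed lines, while Glul and Slc38a3 lie to the left of them and Slc7a11 to the right over all nuclei. For all nuclei the share of all genes outside the lines was not computed.

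The 2 astrocytic transporters came first. Slc1a2 (ENSMUSG00000005089, chromosome 2, 102658659 to 102790784, plus strand, in GENCODE M21 on GRCm38) stood at 6913 CPM in PS19 astrocytes and 7981 CPM in PZKO astrocytes. The log2 ratio was 0.21 (0.19 to 0.22), or 1.15-fold. The summed level of the 13 astrocyte markers differed the same way, at 11857 and 13328 CPM, a log2 ratio of 0.17. As single genes the markers were divided, with 6 of 13 lower in PZKO. Slc1a3 (ENSMUSG00000005360, chromosome 15, 8634124 to 8710764, minus strand) stood at 3208 and 3071 CPM, a log2 ratio of −0.06 (−0.09 to −0.04). With DESeq2 size factors this small difference had the opposite sign, at 0.01. Both genes were in nearly every astrocyte: after each nucleus was thinned to 2000 UMIs, 99.4% of PS19 and 99.4% of PZKO astrocytes had an Slc1a2 UMI, and 97.3% and 97.8% had an Slc1a3 UMI.

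Glul (ENSMUSG00000026473, chromosome 1, 153899944 to 153909723, plus strand) differed least. Its level was 469 CPM in PS19 and 467 CPM in PZKO astrocytes, a log2 ratio of −0.01 (−0.07 to 0.05). At 2000 UMIs per nucleus 54.7% of PS19 and 51.9% of PZKO astrocytes had a Glul UMI (82.5% and 84.2% unthinned), against 3.89% and 2.39% of excitatory neurons (26.4% and 27.2% unthinned), whose median depth was 18704 and 28126 UMIs. Within the astrocyte clusters described below, the log2 ratio of Glul was −0.04 (−0.12 to 0.04) in the one richer in Glul, which held more of the nuclei in PZKO, and −0.12 (−0.22 to −0.02) in the other.

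Slc7a11 (ENSMUSG00000027737, chromosome 3, 49892526 to 50443614, minus strand) was at 283 CPM in PS19 and 338 CPM in PZKO astrocytes. The log2 ratio of 0.26 (0.18 to 0.33) was the largest in size of the 7 in this class, at a PZKO level 1.2 times that of PS19. An Slc7a11 UMI was found in 32.9% of thinned PS19 and 37.7% of thinned PZKO astrocytes (60.9% and 70.2% unthinned), against 0.265% and 0.492% of thinned excitatory neurons. Its heavy chain Slc3a2 differed in the opposite direction, at 75.4 and 56.1 CPM, a log2 ratio of −0.43.

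The glutamine carriers were lower or level in astrocytes. Slc38a3 (ENSMUSG00000010064, chromosome 9, 107650634 to 107669530, minus strand) was at 146 and 126 CPM, a log2 ratio of −0.21 (−0.32 to −0.10). The markers of choroid plexus cells, where Slc38a3 is highest, summed to 425 CPM in PS19 and 59.5 CPM in PZKO astrocytes (8 of 8 lower, none at 0), the oligodendrocyte markers to 695 and 531 CPM (9 of 11 lower, none at 0), and their part was not tested. Slc38a1 (ENSMUSG00000023169, chromosome 15, 96571418 to 96642913, minus strand) was at 202 and 190 CPM, a log2 ratio of −0.09 with an interval that includes 0 (−0.18 to 0.01). The neuronal transporter Slc1a1 (ENSMUSG00000024935, chromosome 19, 28835049 to 28913960, plus strand) had 69 and 88 UMIs in all astrocytes, or 8.50 and 7.94 CPM.

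Of the 7 genes, 4 overlap a counted gene on the other strand, and whether the counting used strand is not given in the sources used here. The overlapping Gm37854 had 1 and 2 UMIs beside 3966 and 8005 for Slc7a11, and Gm13872 had 231 and 336 beside 84699 and 137079 for Slc1a2. For Glul the partner Teddm2 had 2293 and 3911 UMIs beside 10145 and 11731, and for Slc1a1 the partner 4430402I18Rik had 3173 and 4175 beside 10624 and 17023.

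The astrocytes fell into 2 clusters, built without the 7 genes and told apart by Cd44, a hyaluronan receptor found on fibrous and reactive astrocytes, and A2m, a protease inhibitor. The cluster low in both held 539 PS19 and 674 PZKO nuclei, and the cluster high in both held 546 and 490. The 7 genes took different sides. Slc1a2 and Glul were higher in the low cluster, Slc38a1 was higher in the high cluster, and Slc1a3 was close to equal.

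Slc38a1 separated the clusters most. It was at 91.7 CPM in the low and 287 CPM in the high cluster of PS19, and at 80.8 and 306 CPM in PZKO, so that the high cluster stood 3.14-fold and 3.79-fold above the low one. Glul was at 622 and 350 CPM in the low and high cluster of PS19 and at 604 and 321 CPM in PZKO, which puts the low cluster 1.78-fold and 1.88-fold higher. Both orders held in each library, with counting intervals that do not overlap. Slc1a2 was at 8655 and 5555 CPM in the low and high cluster of PS19 and at 9371 and 6507 CPM in PZKO, 1.56-fold and 1.44-fold higher in the low cluster. Slc1a3 was 1.05-fold and 1.13-fold higher in the high cluster. The 2 high-affinity astrocytic glutamate transporters were thus not distributed alike between the clusters.

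Slc7a11 was higher in the low cluster, at 312 against 260 CPM in PS19 and 352 against 323 CPM in PZKO. For Slc38a3 the clusters were at 136 (low) and 153 CPM (high) in PS19, with a high over low log2 ratio of 0.17 whose interval reaches 0 (0.00 to 0.34). In PZKO they were at 104 and 149 CPM, a log2 ratio of 0.52 (0.36 to 0.67).

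Between the libraries, 1 of 6 genes counted in the low cluster passed the threshold. This was Slc38a3, at 136 CPM in PS19 and 104 CPM in PZKO, a log2 ratio of −0.39 (−0.56 to −0.21), where 16.7% of all genes were lower and 7.71% higher past it. In the high cluster its log2 ratio was −0.04 (−0.18 to 0.11), and none of 6 genes passed (19.4% of all genes lower, 8.45% higher). Whether the clusters differ in this ratio was not tested. Slc7a11 came closest to the threshold in the high cluster, just within it at 0.32 (0.21 to 0.42), and was at 0.17 (0.07 to 0.28) in the low cluster.

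**Figure D2:**
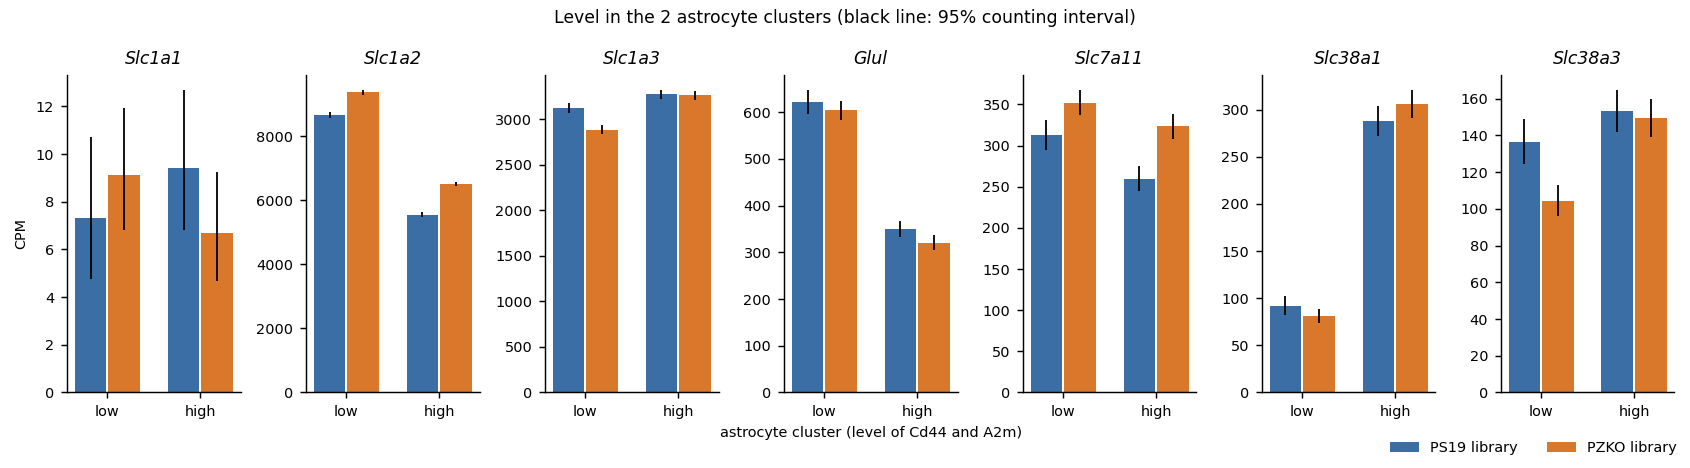
Bars give the level (CPM, each gene on its own axis from 0) in the astrocyte clusters low and high in Cd44 and A2m, for the PS19 and PZKO libraries, with 95% counting intervals in black. In both libraries the Slc38a1 bars are 3.14 and 3.79 times as tall in the high cluster, and the Slc1a2 and Glul bars are taller in the low cluster.

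Across the 12 classes each gene had its own distribution. Astrocytes were the highest class for Slc1a2, Slc1a3 and Glul in both libraries. Oligodendrocyte precursors led for Slc1a1, vascular leptomeningeal cells for Slc7a11, ependymal cells for Slc38a1 and choroid plexus cells for Slc38a3. Apart from Slc38a3 in PS19, where the choroid plexus interval (151 to 185 CPM) overlaps that of astrocytes (138 to 154 CPM), the leading class was set off from the next by intervals that do not overlap.

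**Figure D3:**
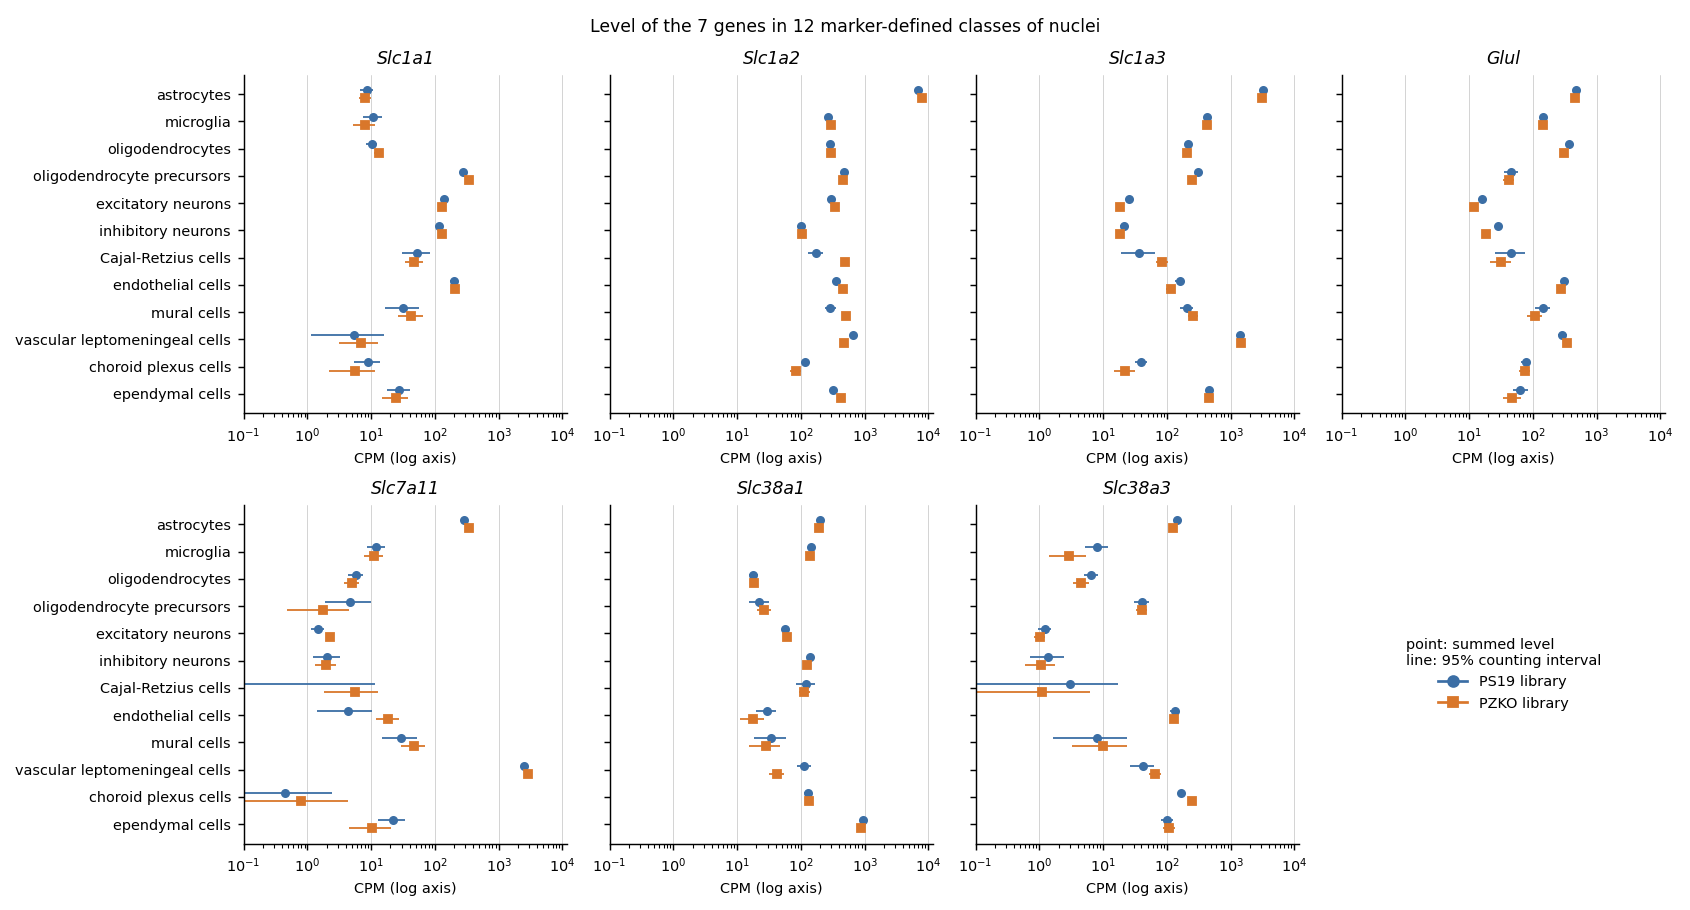
Each panel plots the level of 1 gene (CPM on a log axis) in 12 classes of nuclei for the PS19 and PZKO libraries, with 95% counting intervals as lines. Slc1a2, Slc1a3 and Glul peak in astrocytes, Slc1a1 in oligodendrocyte precursors, Slc7a11 in vascular leptomeningeal cells, Slc38a1 in ependymal cells and Slc38a3 in choroid plexus cells. No point is drawn for Slc7a11 in PS19 Cajal-Retzius cells, where the count was 0.

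Slc1a1 was at 275 CPM in PS19 and 337 CPM in PZKO oligodendrocyte precursors, the cells that renew the myelinating lineage, ahead of endothelial cells (197 and 209 CPM) and excitatory neurons (137 and 131 CPM). Inhibitory neurons followed, at 118 and 127 CPM, and overlapped with excitatory neurons in PZKO. Mature oligodendrocytes held 10.1 and 13.1 CPM. By the sum of molecules, however, neurons held most Slc1a1: 72.7% of its UMIs in PS19 and 68.9% in PZKO were in excitatory neurons. In oligodendrocyte precursors the log2 ratio of PZKO over PS19 was 0.29 (0.11 to 0.47), within the threshold.

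Slc1a2 outside astrocytes lay between 101 CPM (inhibitory neurons) and 659 CPM (vascular leptomeningeal cells) in PS19, and between 82.6 CPM (choroid plexus cells) and 514 CPM (mural cells) in PZKO. Slc1a3 was at 1429 and 1451 CPM in vascular leptomeningeal cells, the fibroblast-like cells of the pia and large vessels, then at 458 and 465 CPM in ependymal cells and at 433 and 421 CPM in microglia, whose intervals overlap in both libraries. To set these against carried-over astrocyte RNA, the 13 astrocyte markers were read in the same nuclei. In microglia Slc1a3 stood at 13.5% (PS19) and 13.7% (PZKO) of its astrocyte level, where the markers had a median of 3.8% and 2.55% of theirs, a summed level of 238 and 192 CPM and a highest marker at 13.6% and 11.9%. Slc1a2 stood there at 3.79% and 3.77% of its astrocyte level. In oligodendrocytes Slc1a2 was at 4.14% in PS19 (marker median 5.12%) and at 3.67% in PZKO (2.98%). In excitatory neurons it was at 4.35% and 4.26%. There the PS19 markers had a median of 1.18%, a sum at 3.86% and a highest marker at 15.0% of the astrocyte level. When a profile of low-depth barcodes was subtracted, Slc1a2 was left with at most 3 UMIs in at least 1 library. This held in the class sums of oligodendrocytes and of excitatory neurons. In vascular leptomeningeal cells Slc1a3 was at 44.5% and 47.3% of its astrocyte level, against marker medians of 11.6% and 6.90%. In excitatory and inhibitory neurons it was at 0.594% to 0.785% of its astrocyte level, and the marker medians were 0.830% to 1.18%.

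Glul was second highest in oligodendrocytes in PS19, at 376 CPM. In PZKO it was at 307 CPM there, with an interval that overlaps those of vascular leptomeningeal cells (342 CPM) and endothelial cells (272 CPM). Oligodendrocytes held 34.4% of all Glul UMIs in PS19 and 27.2% in PZKO, and astrocytes 37.5% and 44.1%. Microglia were at 144 CPM in both libraries. In oligodendrocytes Glul stood at 80.2% and 65.7% of its astrocyte level where the astrocyte markers had medians of 5.12% and 2.98%.

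Slc7a11 was concentrated in vascular leptomeningeal cells, at 2486 CPM (2356 to 2621) in PS19 and 2852 CPM (2761 to 2944) in PZKO, 8.79 and 8.43 times the astrocyte level. The log2 ratio there was 0.20 (0.11 to 0.29). These were 114 and 195 nuclei, and 68.6% and 74.5% of them had an Slc7a11 UMI after thinning. Outside these cells and astrocytes no class was above 46.4 CPM.

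In the vascular leptomeningeal cells 6 of the 7 genes were counted, with 2 lower and 1 higher past the threshold (18.4% and 19.7% of all genes). Slc38a1 was at 113 and 42.5 CPM on 62 and 56 UMIs, a log2 ratio of −1.40 (−1.95 to −0.86), and Slc1a2 at 659 and 466 CPM, −0.50 (−0.69 to −0.31). Slc38a3 had 23 and 86 UMIs, 0.65 (−0.03 to 1.38), with an interval that includes 0. The astrocyte markers summed to 1596 and 1562 CPM in these nuclei, none was at 0, and the highest stood at 133% and 121% of its astrocyte level.

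Slc38a1 was at 948 CPM in PS19 and 892 CPM in PZKO ependymal cells, the ciliated lining of the ventricles, with a log2 ratio of −0.09 (−0.24 to 0.06). Astrocytes came next, then microglia (144 and 139 CPM). Inhibitory neurons (139 and 124 CPM) and choroid plexus cells (127 and 134 CPM) followed, in that order in PS19 and in the opposite order in PZKO, with intervals that overlap each other and those of microglia in both libraries. Excitatory neurons held 57.2 and 61.2 CPM. Slc38a3 was at 167 CPM in PS19 and 248 CPM in PZKO choroid plexus cells, the epithelium that makes cerebrospinal fluid, a log2 ratio of 0.57 (0.35 to 0.79). Of the 5 genes counted in that class it alone was higher past the threshold, and Slc1a2 (−0.49) and Slc1a3 (−0.83) were lower, where 15.6% of all genes were lower and 9.27% higher. The 13 astrocyte markers summed to 298 and 217 CPM in these cells, with 1 at 0 in PZKO, and their part was not tested. The interval of endothelial cells (133 and 130 CPM) overlapped that of astrocytes in both libraries, and that of ependymal cells (102 and 110 CPM) did so in PZKO. Excitatory neurons were at 1.21 and 1.01 CPM.

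Excitatory neurons held 2647 PS19 and 2850 PZKO nuclei in 7 clusters. Slc1a1 was higher in dentate granule cells (178 and 186 CPM), CA1 cells (179 and 180 CPM) and a cluster led by Gm6260 and Shoc1 (194 and 193 CPM) than in CA3 cells (111 and 120 CPM) or in a cluster led by Gm13601 and Exph5 (74.0 and 86.1 CPM). Slc1a2 ran differently. It was at 805 and 825 CPM in the cluster with cortex or subiculum markers, at 460 and 453 CPM in the Gm13601 and Exph5 cluster, at 351 and 366 CPM in CA3 cells, at 180 and 176 CPM in dentate granule cells, at 104 CPM in CA1 cells of both libraries, and at 95.6 and 124 CPM in the Gm6260 and Shoc1 cluster. The cluster with the highest and the CA1 cluster differed in every library by more than their counting intervals. Over the whole class Slc1a2 was left with at most 3 UMIs in at least 1 library after the profile of low-depth barcodes was subtracted. That step used a single share for the class as a whole, 6.07% of the UMIs in PS19 and 6.39% in PZKO. It was not run by cluster, and the part of carried-over RNA in the Slc1a2 levels of the clusters was not tested.

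**Figure D4:**
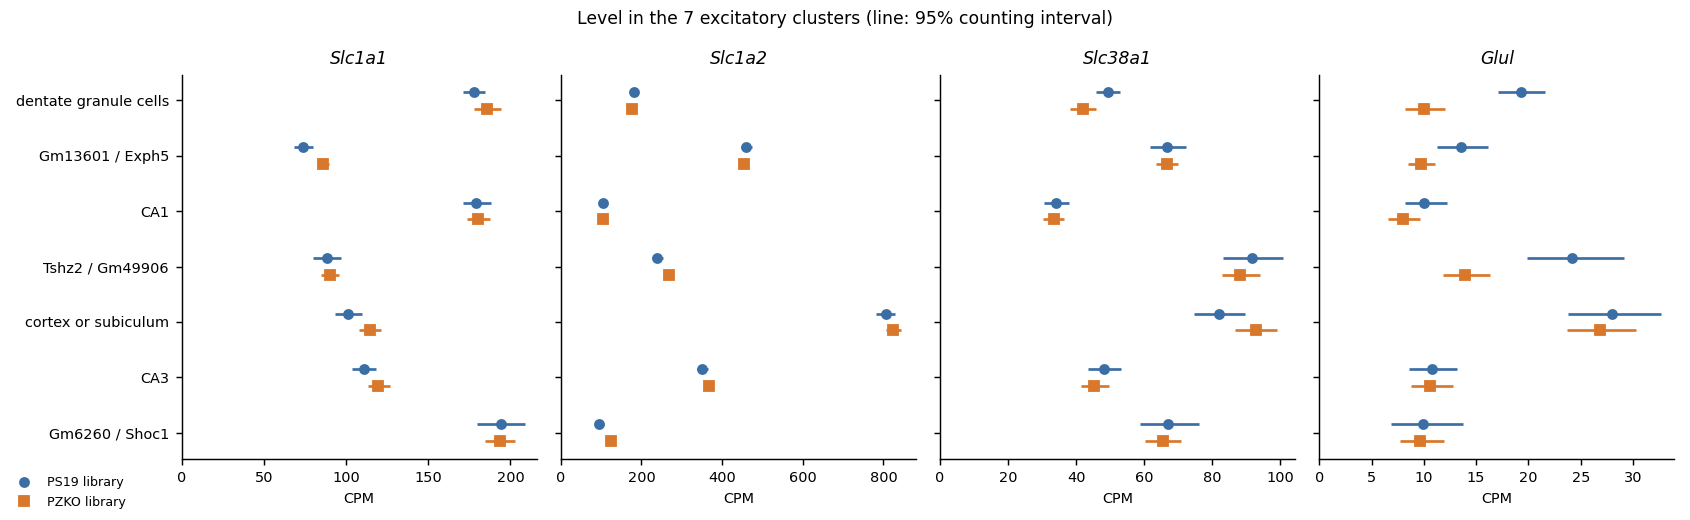
Levels (CPM) of Slc1a1, Slc1a2, Slc38a1 and Glul are plotted for the 7 excitatory clusters in PS19 and PZKO, with 95% counting intervals as lines. Clusters without a region name carry their 2 leading genes. The Slc1a2 points of the libraries differ most in the cluster led by Gm6260 and Shoc1, at 95.6 and 124 CPM, and the cluster with cortex or subiculum markers is highest in both, at 805 and 825 CPM.

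Over all excitatory neurons Slc1a2 was at 300 CPM in PS19 and 340 CPM in PZKO, a log2 ratio of 0.18 (0.15 to 0.21). Within the clusters the ratio was −0.03 in dentate granule cells, −0.02 in the Gm13601 and Exph5 cluster, 0.00 in CA1 cells, 0.03 in the cluster with cortex or subiculum markers and 0.06 in CA3 cells, each with an interval that includes 0. It was 0.16 in a cluster led by Tshz2 and 0.38 in the Gm6260 and Shoc1 cluster. The dentate granule cluster, low in Slc1a2, held 1005 nuclei in PS19 and 511 in PZKO, and the Gm13601 and Exph5 cluster, high in it, held 351 and 713. With equal weights for the 7 clusters the ratio was 0.05. The part of the cluster shares in the ratio of the class was not tested. Whether these shares differ by genotype or by library cannot be told apart.

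The 2 genes lower in PZKO excitatory neurons were sparse. Slc1a3 was at 25.2 and 18.4 CPM, a log2 ratio of −0.45 (−0.56 to −0.35), and Glul at 16.2 and 12 CPM, −0.43 (−0.56 to −0.31), in a class where 17.9% of genes were lower and 8.44% higher past the threshold. Equal weights of the clusters gave −0.16 for Slc1a3. By cluster its log2 ratio was −0.17 (−0.34 to −0.004) in dentate granule cells, where it was at 50.3 and 44.8 CPM. In the Tshz2 cluster the ratio was −0.60 (−0.96 to −0.23). In CA3 cells Slc1a3 was higher in PZKO, at 11.7 and 17.6 CPM, 0.59 (0.23 to 0.96). The other clusters had intervals that include 0 for Slc1a3. Glul was 19.3 and 10.0 CPM in dentate granule cells, −0.94 (−1.27 to −0.62), and 24.2 and 14.0 CPM in the Tshz2 cluster, −0.79 (−1.16 to −0.43), while the CA3 cluster was at −0.02 and the cluster with cortex or subiculum markers at −0.06. Beside this, the oligodendrocyte markers found in excitatory neurons summed to 309 CPM in PS19 and 261 CPM in PZKO (7 of 11 lower, none at 0), the astrocyte markers to 458 and 428 CPM (9 of 13 lower, none at 0) the choroid plexus markers to 182 and 35.5 CPM (6 of 8 lower, none at 0) and the inhibitory neuron markers to 490 and 270 CPM. When a profile of low-depth barcodes was subtracted, Slc1a2, Slc1a3, Glul, Slc7a11 and Slc38a3 were left with at most 3 UMIs in excitatory neurons of at least 1 library. The part of carried-over RNA in these ratios was not tested beyond that subtraction.

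Slc7a11 was higher in PZKO excitatory neurons with 1.44 CPM from 81 UMIs in PS19 and 2.30 CPM from 205 UMIs in PZKO. The log2 ratio of 0.67 (0.30 to 1.06) was 0.03 when doublets were kept in. Slc1a1, at 137 and 131 CPM, and Slc38a1, at 57.2 and 61.2 CPM, had log2 ratios of −0.06 (−0.11 to −0.02) and 0.10 (0.04 to 0.16). With equal weights of the clusters these were 0.07 and −0.02. After a profile of low-depth barcodes was subtracted, the ratio of Slc38a1 was 0.42.

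In oligodendrocytes, 2571 PS19 and 2243 PZKO nuclei, 1 gene was lower and 1 higher past the threshold, where 17.1% of genes were lower and 5.9% higher. Slc38a3 had 60 and 47 UMIs, a log2 ratio of −0.52 (−1.10 to 0.06), and Slc1a1 had 94 and 136 UMIs, 0.37 (−0.02 to 0.76). In the same nuclei the markers of choroid plexus cells, the class highest in Slc38a3, summed to 845 CPM in PS19 and 92.2 CPM in PZKO (8 of 8 lower, none at 0). The astrocyte markers summed to 251 and 193 CPM (10 of 13 lower, none at 0), and the part of either list was not tested. Glul rested on more molecules, with 3488 UMIs in PS19 and 3196 in PZKO. The levels of 376 and 307 CPM gave a log2 ratio of −0.29 (−0.36 to −0.22). It was −0.04 (−0.16 to 0.08) in the cluster led by 7630403G23Rik and Opalin, with 693 and 1164 nuclei, −0.23 (−0.35 to −0.11) in the second cluster, with 866 and 745 nuclei, and −0.43 (−0.60 to −0.25) in the third, with 1012 and 334 nuclei. The cluster richest in Glul, at 465 CPM in PS19 and 346 CPM in PZKO, thus held fewer nuclei in PZKO. Slc1a2 had a log2 ratio of 0.04 (−0.04 to 0.11) over the class. In the same clusters it was 0.50 (0.35 to 0.64), −0.10 (−0.23 to 0.03) and 0.57 (0.42 to 0.71). With equal weights of the clusters it was 0.37. After a profile of low-depth barcodes was subtracted, too few Slc1a2 UMIs were left for a ratio.

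In microglia 4 of the genes were counted and none passed the threshold (14.6% of all genes lower, 8.6% higher). In endothelial cells 5 were counted, with 1 on each side (11.3% and 12.3% of all genes). Slc1a2 was at 359 CPM in PS19 and 458 CPM in PZKO endothelial cells, a log2 ratio of 0.35 (0.17 to 0.53), and Slc1a3 at 158 and 115 CPM, −0.46 (−0.78 to −0.14). The log2 ratios of these glial transporters thus had opposite signs there. In PS19 Slc1a2 stood at 5.20% and Slc1a3 at 4.93% of the astrocyte level. The 13 astrocyte markers had a median of 6.07% and a highest at 16.7% in the same PS19 nuclei. These markers summed to 562 CPM in PS19 and 364 CPM in PZKO, none was at 0, and their part was not tested.

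In inhibitory neurons 5 were counted and Glul alone passed the threshold (15.8% of all genes lower, 5.7% higher). It was at 28.8 and 18.3 CPM, a log2 ratio of −0.65 (−0.91 to −0.40). It was at 24.4 and 12.8 CPM in the interneuron cluster led by Kcnmb2. In the other interneuron cluster, led by Dlx6os1 and Adarb2, it was at 34.7 and 28.4 CPM, with intervals that overlap. Over the class Glul stood at 6.13% (PS19) and 3.92% (PZKO) of its astrocyte level. In PS19 the 13 astrocyte markers there had a median of 1.14%, a highest at 6.19% and a sum of 217 CPM. The part of carried-over RNA in this ratio was not tested. Cajal-Retzius cells, which numbered 41 in PS19 and 55 in PZKO, are shown in the plot of levels by class only.

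Summed over all nuclei, the 7 genes gave another picture than astrocytes alone. Glul was at 101 CPM in PS19 and 76.7 CPM in PZKO, a log2 ratio of −0.39 (−0.43 to −0.35), and Slc38a3 at 21.1 and 15.8 CPM, −0.42 (−0.50 to −0.33). Slc7a11 was at 39.3 and 52.4 CPM, 0.41 (0.36 to 0.47), and Slc1a3 was at −0.22. In the same sums astrocytes made up 8.04% of the UMIs in PS19 and 7.25% in PZKO, oligodendrocytes 9.20% and 6.82%, choroid plexus cells 2.25% and 0.832%, and vascular leptomeningeal cells 0.546% and 0.861%. With the share of each class held at the mean of the libraries, the ratio was −0.18 for Glul, −0.06 for Slc38a3, 0.23 for Slc7a11 and −0.08 for Slc1a3. For Slc1a2 it was 0.10 as summed and 0.17 at equal shares. The share of all genes past the threshold was not computed for the sums over all nuclei. Whether the shares of the classes differ by genotype or by library cannot be told apart.

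The other genes of the pathway were read from a list of 45, of which 34 had at least 100 UMIs in astrocytes. Of these, 7 were lower and 2 higher in PZKO past the threshold, beside 19.9% and 6.3% of all genes. Their median log2 ratio was 0.01. At 1.5-fold 4 were lower and none higher, beside 6.02% and 1.32% of all genes. Slc1a5, a neutral amino acid and glutamine exchanger, was at 31.4 and 15.4 CPM, a log2 ratio of −1.03 (−1.31 to −0.74). Atp1b2, the glial beta subunit of the sodium pump whose gradient drives glutamate uptake, was at 462 and 279 CPM, −0.73 (−0.80 to −0.66). Gad1 and Gad2, the enzymes that make GABA from glutamate in interneurons, were at low levels in astrocytes, 16.6 and 8.66 CPM and 12.2 and 6.95 CPM. The potassium channel Kcnj10 was at 143 and 146 CPM, 0.03.

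In excitatory neurons 39 of the 45 were counted, with 7 lower and 1 higher past the threshold, beside 17.9% and 8.44% of all genes. The median of these pathway genes was −0.11 beside −0.07 for all genes. Among those past 1.5-fold, where 4.87% of all genes were lower and 2.48% higher, were Gad1, the glutamine carrier Slc38a5 and Atp1b2, each lower in PZKO and at 20.7 CPM or less. The inhibitory neuron markers in the same nuclei summed to 490 CPM in PS19 and 270 CPM in PZKO, −0.86 on the log2 scale, with 9 of 12 lower and none at 0, and their part was not tested. The vesicular glutamate transporter Slc17a7, which is high in this class, had a log2 ratio of −0.16 (−0.19 to −0.13), from 272 CPM in PS19 and 243 CPM in PZKO. In oligodendrocytes 32 were counted, with 8 lower and 2 higher past the threshold, beside 17.1% and 5.9% of all genes. Their median was −0.03 beside −0.04. Past 1.5-fold (5% of all genes lower, 1.2% higher) were Slc17a6, another vesicular glutamate transporter, at 3.45 and 7.01 CPM, and Slc25a18, a mitochondrial glutamate carrier, at 7.98 and 4.51 CPM.

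Genes with the most similar profile were sought over 24 points, the 12 classes in each of the 2 libraries, among 13021 genes with at least 1000 UMIs, by Pearson's r of log2(CPM + 1). The points share 2 libraries and their depth, so r is a description. Slc1a2 was most like Ntsr2 (r = 0.92), Paqr8 and Gpam, Slc1a3 most like Plpp3 (r = 0.93), Mxi1 and Gja1, and Ntsr2 and Gja1 are among the markers that named astrocytes. Slc7a11 was most like Slc13a3 (r = 0.95), Ranbp3l, a marker that named vascular leptomeningeal cells, and Scara3. Glul was most like Tsc22d3 (r = 0.91), Fgd6 and Bcl3, Slc1a1 most like Ptprr (r = 0.93), Cdh13 and Prkar2b, Slc38a1 most like Oscp1 (r = 0.90), Iqank1 and Nek4, and Slc38a3 most like Eci2 (r = 0.92), Myo10 and Kifc3. Among the 7 genes themselves, Slc1a3 was closest to Slc7a11 (r = 0.82) and Slc1a2 (r = 0.78), and r between Slc1a1 and each of the other 6 lay between −0.56 (Glul) and −0.20 (Slc1a2).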

How the data were processed

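Single-nucleus 3′ RNA libraries of pooled hippocampi were sequenced for 1 PS19 and 1 PZKO sample. The values are counts of UMIs per gene and nucleus that the authors deposited as whole numbers, made with Cell Ranger on mm10. The submitters' processing notes name version 7.0.1 and the matrix headers version 8.0.1. SoupX correction, filters and DoubletFinder, which the methods describe, are not in the deposited counts. The labels state that hippocampi of individual animals were processed separately, but no animal is marked in the files.

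Nuclei with under 600 UMIs, under 300 genes or over 5% mitochondrial UMIs were left out, as were the nuclei with the highest Scrublet scores at 0.8% per 1000 nuclei (876 and 821 nuclei), because the automatic threshold marked 1 PZKO nucleus. The kept nuclei held 100905972 UMIs in PS19 and 152852227 in PZKO. They were clustered together (scanpy 1.11.5, leidenalg 0.10.2; 2000 variable genes without the 7 genes and the pathway list, 30 components, 20 neighbours, resolution 1) and clusters were named from marker lists. The rule for withholding a name was set once the clusters were known, and 5 of them, with 7.38% and 7.50% of nuclei, stayed unnamed and enter only the sums over all nuclei.

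UMIs were summed per class and library and divided by the class total (CPM). UMI sums have exact Poisson intervals, ratios have conditional Clopper-Pearson intervals and shares have exact binomial ones, all at 95%. The interval step was tested on simulated data. Genes with at least 100 UMIs in a class over both libraries were counted against a threshold of 0.32 in the size of the log2 ratio. The members and lists were chosen with earlier results of these data known. The 7 genes are plotted in every class. The text does not give every ratio, and gives no count of genes past the threshold in oligodendrocyte precursors or mural, ependymal and Cajal-Retzius cells. By rule it also names pathway genes past 1.5-fold (at most 8 per class), Slc3a2 and Slc17a7, and for each of the 7 the 3 most similar genes. Kcnj10 was named after its values were seen. Some pathway genes that this rule names are not reported here. Alternatives included edgeR 4.0.16 TMM and DESeq2 1.42.0 size factors, used for scaling only. Positions are from GENCODE M21.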

Additional observations from a re-analysis of the deposited data

Results flagged for a closer look

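For 4 of the genes the interval of the log2 ratio lay above 0 in 1 class and below 0 in another, among classes with at least 50 nuclei per library. Whether the classes differ was not tested. Slc1a1 was at 0.29 in oligodendrocyte precursors and at −0.064 in excitatory neurons. The latter is the ratio of the whole class. Within its clusters the Slc1a1 ratio ran from −0.0044 (Gm6260 and Shoc1 cluster) to 0.22 (Gm13601 and Exph5 cluster), and with equal weights of the clusters it was 0.068. Slc1a2 was at 0.83 in mural cells, on 109 and 255 UMIs, and at −0.50 in vascular leptomeningeal cells, on 363 and 614 UMIs. The summed astrocyte markers were at 287 and 496 CPM in mural cells and at 1596 and 1562 CPM in vascular leptomeningeal cells. Slc38a1 was at 0.10 in excitatory neurons and at −1.40 in vascular leptomeningeal cells, on 62 and 56 UMIs. Slc38a3 was at 0.57 in choroid plexus cells, which held 256 PS19 and 98 PZKO nuclei, and at −0.21 in astrocytes.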

How the results depend on the processing

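No paired analysis was possible because each genotype has 1 library. In astrocytes the count of the 7 genes past the threshold was 0 lower and 0 higher, and it moved under 3 alternatives: 1 lower after the subtraction of a profile of barcodes under 600 UMIs (Slc1a1, on 69 and 88 UMIs before it), 1 higher with DESeq2 size factors and 1 higher with the stricter filter on nuclei (Slc7a11 in both). Over 12 alternatives the log2 ratio in astrocytes stayed within 0.14 to 0.28 for Slc1a2, 0.20 to 0.33 for Slc7a11, −0.27 to −0.14 for Slc38a3 and −0.10 to 0.10 for Glul. In excitatory neurons 2 lower became 1 with equal weights of the clusters and 0 at a fold of 1.5, after the ambient subtraction, and after subtraction of the profile of the unnamed low-UMI cluster, an alternative chosen after seeing the data. There 1 higher (Slc7a11) became 0 without doublet removal and after the low-UMI cluster subtraction. After the ambient subtraction Slc7a11 could not be given, and the 1 higher was Slc38a1, at 0.42. In oligodendrocytes 1 lower (Slc38a3) became 0 with the stricter filter and at a fold of 1.5. After the low-UMI cluster subtraction there were 2, Glul and Slc1a3. After the ambient subtraction the 1 lower was Slc1a3, at −0.60. Slc38a3 could not be given after either subtraction. In this class 1 higher (Slc1a1) became 0 with the mean over nuclei, without doublet removal, after both subtractions and at a fold of 1.5. With equal weights there were 2, which were Slc1a2 (0.37) and Slc38a1 (0.44). Among the ratios whose interval excludes 0, those that changed sign were Slc1a3 in astrocytes (0.0084, DESeq2 size factors), Slc1a1 in excitatory neurons (0.0045 with TMM, 0.015 with size factors, 0.068 with equal weights) and Slc38a1 in excitatory neurons (−0.017 with equal weights). Another 6 ratios, with intervals that include 0, took both signs over the alternatives: in astrocytes Glul, Slc1a1 (−2.09 to 0.10) and Slc38a1 (−0.12 to 0.05), and in oligodendrocytes Slc1a3 (−0.60 to 0.0024), Slc38a1 (−0.11 to 0.44) and Slc7a11 (−0.20 to 0.09). Apart from the fold and the subtraction, which change the rule or remove the counts, the cause was not tested. After a subtraction, 20 ratios could not be given because at most 3 UMIs were left. The subtraction took 6.07% to 14.0% of the UMIs of a class. Low counts limit Slc1a1 in astrocytes and Slc7a11 and Slc38a3 in neurons and oligodendrocytes. With 1 library per genotype no spread between animals is known.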
